A study of Ciona robusta with 6 samples.

Results

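The 7 genes described here are regulators that act in, or lie close to, the program of the ascidian motor ganglion, read in anterior neural plate (ANP) cells of *Ciona robusta* that were made to express 1 of them, *Lhx3/4*. The members were given by gene model: *Lhx3/4* (KH2012:KH.S215.4), *Nkx6* (KH2012:KH.C5.502), *Vsx* (KH2012:KH.C11.689), *Islet* (KH2012:KH.L152.2), *Mnx* (KH2012:KH.L128.12), *Neurogenin* (KH2012:KH.C6.129) and *Ebf* (KH2012:KH.L24.10). They are 7 of 16526 gene models in the count tables, and all 7 were among the 13641 with at least 100 reads over the 6 libraries, which were tested. The names of *Nkx6*, *Vsx*, *Lhx3/4* and *Ebf* follow from gene numbers in the study, whereas the pairing of *Islet*, *Mnx* and *Neurogenin* with their models was taken as given with the list and was not checked against sequence.

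The *Lhx3/4* libraries came from embryos carrying *Dmrt>GFP* and *Dmrt>Lhx3/4* (n = 3), and the controls from embryos carrying *Dmrt>GFP* alone (n = 3). Both groups had a wild type genotype, were raised at 18°C and were sorted on GFP before polyA RNA was sequenced, and the *Dmrt* enhancer that drives both transgenes is active in the ANP lineage from cleavage stages on. Electroporation gives mosaic embryos, so the sorted cells are those that took up the GFP plasmid. The control carried no second *Dmrt*-driven factor in the labels, so *Lhx3/4* itself and the presence of another transgene cannot be told apart. Between 52637768 and 71200276 reads were assigned to genes in each *Lhx3/4* library, and between 58295081 and 68937810 in each control library.

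In the ascidian larva the motor ganglion lies behind the brain and holds the motor neurons and interneurons that drive swimming, whereas the ANP gives rise to the palps and the anterior brain vesicle. In vertebrates, LIM homeodomain proteins of the Lhx3 class act in spinal interneurons and, together with Islet proteins, in motor neurons. Nkx6 proteins mark the ventral progenitors of both, Vsx proteins mark a class of excitatory interneurons, and Mnx proteins mark motor neurons. Neurogenin starts neurogenesis in many chordate tissues, and Ebf acts later, in neurons that differentiate. The comparison asked which of these factors were higher, lower or near background in ANP cells that carried *Lhx3/4*.

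In the *Lhx3/4* libraries *Lhx3/4*, *Nkx6* and *Islet* rose, and *Ebf* and *Neurogenin* fell. *Vsx* and *Mnx* did not pass the edgeR test without the replicate number. DESeq2 without that number called *Vsx* up (DESeq2 adjusted p = 2.48e-04) and did not call *Mnx* (DESeq2 adjusted p = 0.171). With that number as a block, a fit given because libraries of the same number varied together, *Vsx* rose (edgeR adjusted p = 0.0228) and *Mnx* fell (edgeR adjusted p = 0.0133), and the other 5 kept their calls. In such sorted populations a change in the number of cells with a transcript and a change in transcript per cell cannot be told apart. A call needed an edgeR quasi-likelihood p under 0.05 after Benjamini-Hochberg adjustment over every gene tested, and a log2 fold change no smaller than 0.58 in size. Without the block this rule called 5 of the 7 members, against 4.77% of all tested genes and 20.1% of the 294 annotated transcription factors that were tested. By direction, 3 members rose, where the rule called 1.85% of all genes and 3.4% of transcription factors up. The 2 members that fell stand beside 2.92% of all genes and 16.7% of transcription factors called down. Without *Lhx3/4*, whose rise is set by the transgene, 2 of 6 members rose and 2 fell. The median log2 fold change of the members was 1.42, and -0.19 without *Lhx3/4*, against 0.01 over all tested genes and -0.09 over transcription factors. The members were chosen with earlier results of these libraries known, so these shares are a description. The study compared these same libraries with DESeq2. It places *Vsx*, *Nkx6*, *Islet* and *Pax6*, which it ties to the motor ganglion, among the most raised transcription factors. The rises read here are thus not independent of that report.

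**Figure D1:**
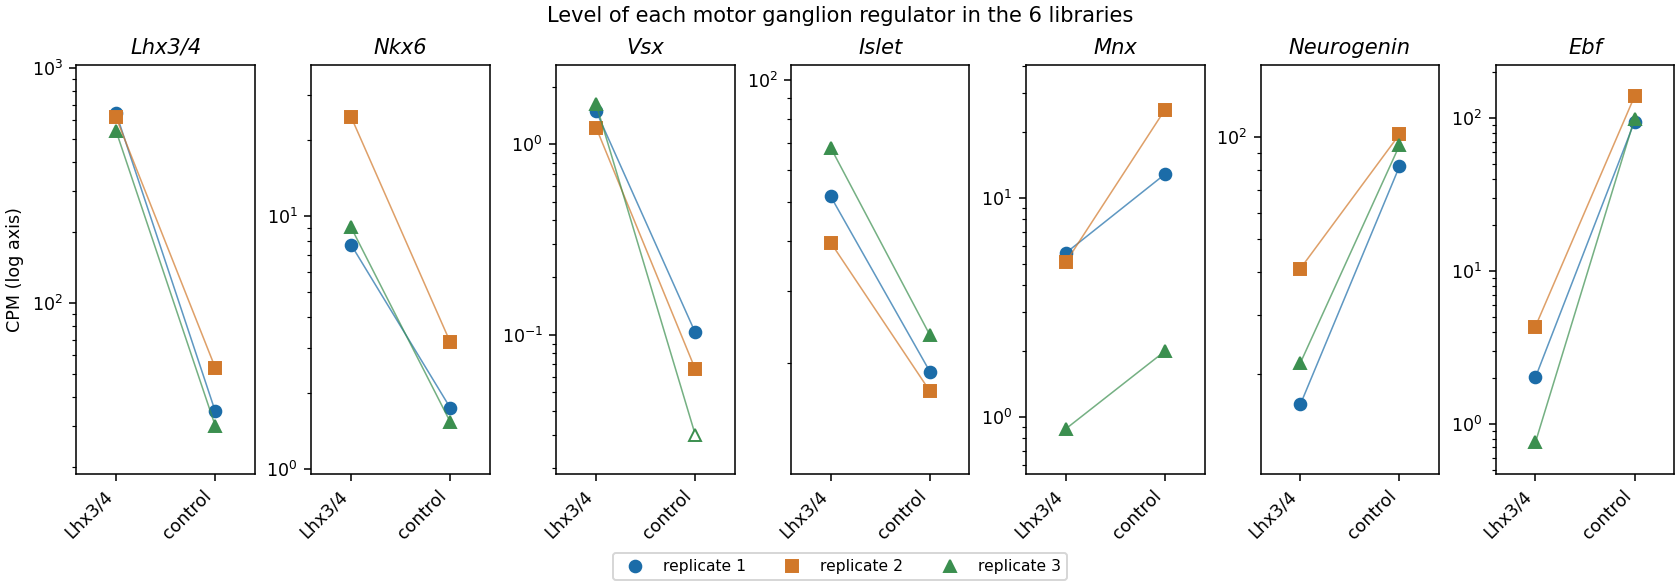
CPM (counts scaled to library size, log axis, a separate scale per panel) of each of the 7 genes in the 3 *Lhx3/4* libraries (left) and the 3 control libraries (right), with libraries of the same replicate number joined by a line. The open symbol for *Vsx* marks a library with 0 reads, drawn below the other values. *Lhx3/4*, *Nkx6*, *Vsx* and *Islet* are higher in every *Lhx3/4* library than in any control, *Neurogenin* and *Ebf* are lower, and *Mnx* overlaps between the groups.

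Levels are given in CPM, read counts scaled to the TMM-adjusted library size, for libraries 1, 2 and 3 of each group, and they are compared between groups of 1 gene only, because the gene models have different lengths. *Lhx3/4*, the LIM homeodomain factor supplied by the transgene, had 644, 617 and 541 CPM in *Lhx3/4* libraries, against 34.7, 53.2 and 30.1 CPM in control libraries. All 3 *Lhx3/4* libraries carried the factor at a like level, and no control library came near them. The log2 fold change was 3.93 (SE 0.25, 95% interval 3.35 to 4.51, edgeR adjusted p = 3.43e-04). The count does not separate transgene from endogenous transcripts, so this rise is set by the experiment and says nothing of the endogenous locus. With 2014 to 3214 reads, the gene was also detected in each control library, from embryos that did not carry the *Lhx3/4* plasmid. The source of these reads was not tested.

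*Nkx6*, the homeodomain factor of ventral progenitors, had 7.7, 24.6 and 9.01 CPM in *Lhx3/4* libraries, against 1.75, 3.18 and 1.54 CPM in control libraries. The groups did not overlap, and library 2 was the highest of its group in both. The mean was 13.8 ± 9.39 CPM in *Lhx3/4* libraries and 2.15 ± 0.89 CPM in control libraries (SD, n = 3 each), a ratio of 6.39. The log2 fold change was 2.67 (SE 0.55, 95% interval 1.39 to 3.96, edgeR adjusted p = 0.036). The call rested on several libraries: it was lost when any of the 3 control libraries, or *Lhx3/4* library 2 or 3, was left out (log2 1.95 to 3.06, adjusted p = 0.0547 to 0.134). It was kept without *Lhx3/4* library 1 (adjusted p = 0.0418).

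*Vsx*, the homolog of the vertebrate interneuron factor, was close to undetected in control cells. It had 83, 83 and 118 reads in *Lhx3/4* libraries, against 6, 4 and 0 reads in control libraries. In CPM these were 1.49, 1.22 and 1.62 in *Lhx3/4* libraries, against 0.103, 0.0662 and 0 in control libraries. All 3 *Lhx3/4* libraries lay above all controls, and control library 3 allows at most 0.0448 CPM, the level of 3 reads. Summed over libraries and corrected for depth, 284 reads in *Lhx3/4* libraries and 10 in control libraries gave a ratio of 26.8 (95% exact binomial interval 14.4 to 56.6, which covers counting error only). The edgeR log2 fold change was 4.65 (SE 1.06, 95% interval 2.18 to 7.12), with an adjusted p of 0.0544 that missed the threshold. Pairing by replicate number was read from the values of these libraries and is given by no label. With replicate number as a block the edgeR adjusted p was 0.0228 (log2 4.85, 95% interval 2.39 to 7.32). DESeq2 gave an adjusted p of 2.48e-04 (log2 4.69), and the edgeR fit without control library 3 gave 0.0314 (log2 4.06). The other 5 edgeR fits that left out 1 library did not pass (adjusted p = 0.0969 to 0.175). Nor did those that left out both libraries of 1 replicate number (edgeR adjusted p = 0.0834 to 0.306). Of the 294 transcription factors tested, *Vsx* had the highest fitted log2 fold change, followed by *Lhx3/4*, and a fitted value against so few reads depends on the fit.

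*Islet*, a LIM homeodomain factor of motor neurons that in *Ciona* is also expressed in palp precursors of the ANP, was present in every control library. It had 51.5, 39.6 and 68 CPM in *Lhx3/4* libraries, against 19, 17 and 23.4 CPM in control libraries. The groups did not overlap, and in both groups library 3 was highest and library 2 lowest. The mean was 53 ± 14.3 CPM in *Lhx3/4* libraries and 19.8 ± 3.28 CPM in control libraries (SD, n = 3 each), and the log2 fold change was 1.42 (SE 0.24, 95% interval 0.85 to 1.99, edgeR adjusted p = 0.0166). Without control library 1 or 2, or without *Lhx3/4* library 1 or 3, the call was lost (log2 1.20 to 1.42, adjusted p = 0.0553 to 0.0708). Within replicate numbers the log2 ratio was 1.44, 1.22 and 1.54, the narrowest range of the 7 members (0.32).

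**Figure D2:**
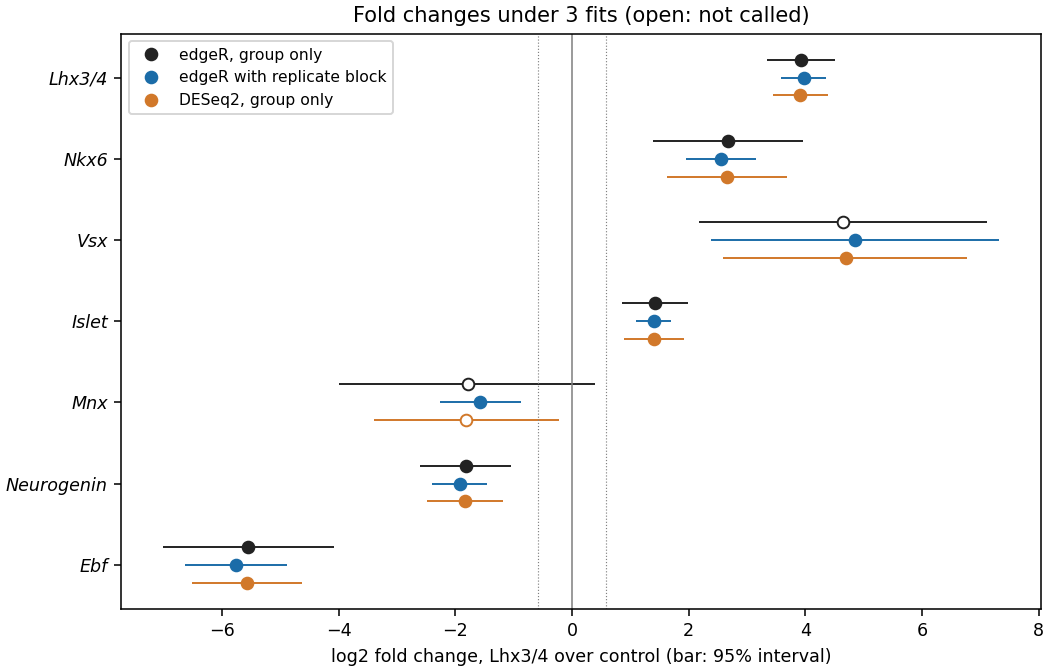
Log2 fold change of each member, *Lhx3/4* over control, with 95% intervals from edgeR without the replicate block, from edgeR with the block and from DESeq2. The intervals of *Mnx* reach across 0 in edgeR without the block (-3.99 to 0.40) and lie below 0 with it (-2.27 to -0.88), and those of the other 6 genes lie on 1 side of 0 in all 3 fits.

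*Mnx*, the homeodomain factor of motor neurons, had 5.59, 5.07 and 0.879 CPM in *Lhx3/4* libraries, against 12.8, 25.2 and 1.99 CPM in control libraries. The groups overlapped, because library 3 was far below libraries 1 and 2 in both groups. The log2 fold change was -1.79 (SE 0.94, 95% interval -3.99 to 0.40), and the edgeR adjusted p was 0.434. Against the control of its own number, each *Lhx3/4* library was lower, with log2 ratios of -1.19, -2.31 and -1.15. With replicate number as a block *Mnx* passed, at a log2 fold change of -1.58 (SE 0.30, 95% interval -2.27 to -0.88, edgeR adjusted p = 0.0133). DESeq2 without the block did not call it (log2 -1.81, adjusted p = 0.171). No fit gave a positive value for *Mnx*, and it was detected in every library, with 64 to 346 reads in *Lhx3/4* libraries and 133 to 1525 reads in control libraries.

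*Neurogenin*, the basic helix-loop-helix factor that starts neurogenesis, had 16.3, 41 and 21.6 CPM in *Lhx3/4* libraries, against 82.1, 102 and 94.7 CPM in control libraries. The study names *Neurogenin* among the known ANP factors that were lowered. Every *Lhx3/4* library lay below every control, and library 2 was highest and library 1 lowest in both groups. The mean was 26.3 ± 13 CPM in *Lhx3/4* libraries and 92.8 ± 9.89 CPM in control libraries (SD, n = 3 each), and the log2 fold change was -1.82 (SE 0.33, 95% interval -2.60 to -1.04, edgeR adjusted p = 0.0219). The call was lost without control library 2 (log2 -1.75, adjusted p = 0.0778) or *Lhx3/4* library 3 (log2 -1.69, adjusted p = 0.087).

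*Ebf*, the factor of differentiating neurons, fell the most of the 7 members. It had 2.01, 4.33 and 0.756 CPM in *Lhx3/4* libraries, against 94.9, 139 and 99.2 CPM in control libraries. The highest *Lhx3/4* library was far below the lowest control, although 55 to 295 reads remained in each *Lhx3/4* library. The control mean was 47 times the *Lhx3/4* mean, with 2.37 ± 1.81 CPM in *Lhx3/4* libraries and 111 ± 24.6 CPM in control libraries (SD, n = 3 each). The log2 fold change was -5.55 (SE 0.63, 95% interval -7.01 to -4.09, edgeR adjusted p = 0.00311). This call held without each of the 6 libraries in turn (adjusted p at most 0.0175), and only 2 of the 294 tested transcription factors had a lower log2 fold change.

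**Figure D3:**
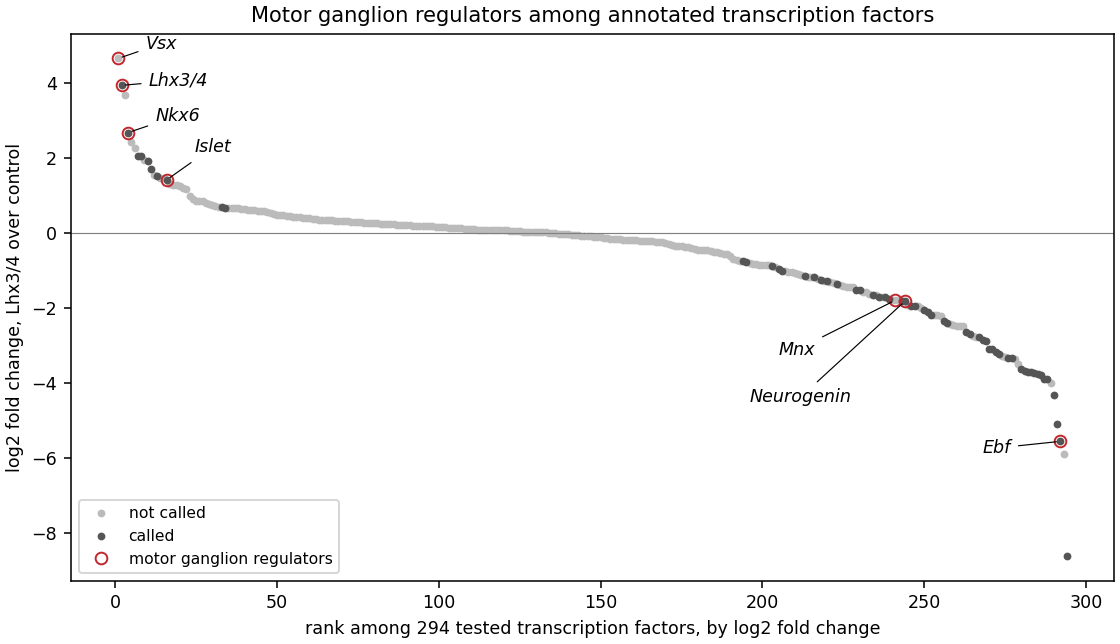
Log2 fold changes, *Lhx3/4* over control, of the 294 annotated transcription factors tested, ordered from highest to lowest, with the 7 members marked. *Vsx*, *Lhx3/4* and *Nkx6* stand at ranks 1, 2 and 4 from the top and *Islet* at 16, whereas *Ebf* stands at rank 3 from the bottom, *Neurogenin* at 51 and *Mnx* at 54.

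Among the members, *Lhx3/4*, *Nkx6*, *Vsx* and *Islet* had a log2 fold change above 0, and *Mnx*, *Neurogenin* and *Ebf* had one below 0. With replicate number as a block, all 7 members passed, 4 up and 3 down. That fit called 4.72% of all tested genes up and 6.94% down, and 10.2% of transcription factors up and 24.5% down. DESeq2 called 6 members, 4 up and 2 down, beside 8.97% of all genes (3.5% up, 5.47% down) and 30.3% of transcription factors (7.48% up, 22.8% down). By the values alone, 4 members were higher in every *Lhx3/4* library than in any control and 2 were lower in every one. Over all tested genes 21.5% had groups that did not overlap (10.9% higher, 10.6% lower), and over transcription factors 43.2% (14.3% higher, 28.9% lower). Most transcription factors that passed fell: without the 7 members, 7 of 287 rose and 47 fell.

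The spread between libraries of 1 group differed from gene to gene, and some shifts were shared between genes. In *Lhx3/4* libraries the coefficient of variation was 8.95% for *Lhx3/4*, 14.3% for *Vsx* and 26.9% for *Islet*, whereas it was 49.6% for *Neurogenin*, 67.2% for *Mnx*, 68.2% for *Nkx6* and 76.6% for *Ebf*. In control libraries the coefficient was 10.7% for *Neurogenin*, 16.5% for *Islet*, 22.1% for *Ebf* and 31.1% for *Lhx3/4*. For *Nkx6*, *Mnx* and *Vsx* it was 41.3%, 87.1% and 92.6% in control libraries. *Nkx6*, *Neurogenin* and *Ebf* were highest in library 2 of both groups. As deviations of log2 CPM from the group mean, *Lhx3/4* library 2 stood at 1.04 for *Nkx6*, 0.75 for *Neurogenin* and 1.19 for *Ebf*, and at 0.04 for *Lhx3/4*. Control library 2 stood at 0.63, 0.14 and 0.35 for the same 3 genes, and at 0.48 for *Lhx3/4*. What sets libraries 2 apart was not tested. *Mnx* deviated by -1.70 in *Lhx3/4* library 3 and by -2.11 in control library 3, the largest shift shared by a pair of same-numbered libraries among the members. Within replicate numbers the ratio of *Ebf* ranged over 1.98 on the log2 scale, with values of -5.54, -5.00 and -6.98.

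**Figure D4:**
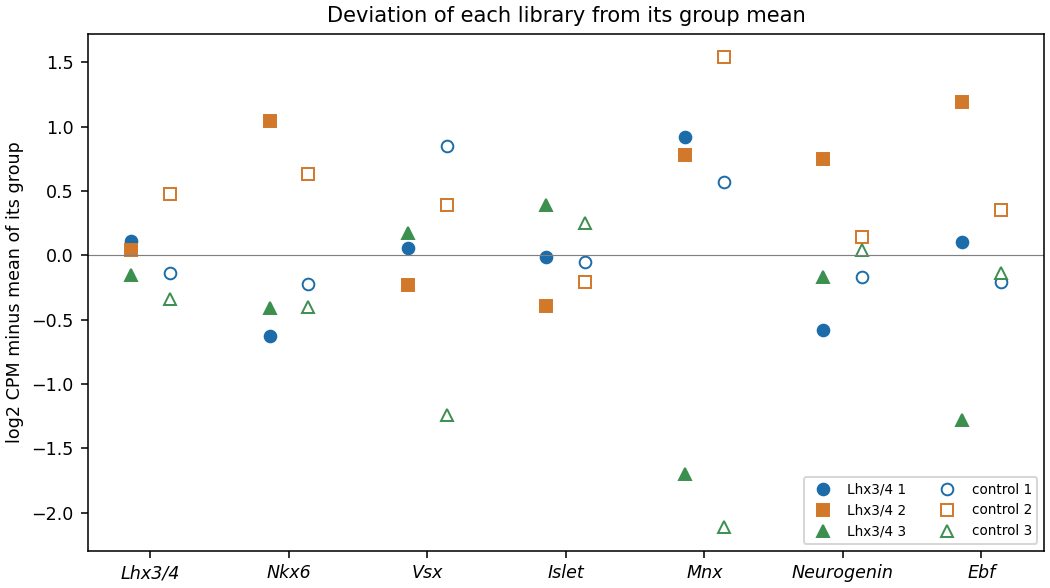
Deviation of log2 CPM from the group mean for each member in *Lhx3/4* libraries 1 to 3 and control libraries 1 to 3. *Mnx* is low in library 3 of both groups (-1.70 in *Lhx3/4*, -2.11 in control), and *Nkx6* is high in library 2 of both (1.04 in *Lhx3/4*, 0.63 in control).

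Profiles over the 6 libraries were compared between each member and the other 293 tested transcription factors by the root mean square (RMS) difference of log2 CPM, each gene centred on its mean. This is a description over 6 libraries that form 2 groups, so genes with a like fold change come out as alike. *Lhx3/4* and *Vsx* were nearest to each other, at 0.60, and *Nkx6* was the third nearest to *Lhx3/4*, at 0.89. *Vsx* and *Ebf* were the most unlike members, at 5.17. For *Nkx6* the nearest were KH.S1404.2 at 0.52 and *Foxf*, a regulator of the cardiopharyngeal lineage, at 0.56. *Islet* was nearest to KH.C3.443, at 0.24, which had 246, 252 and 292 CPM in *Lhx3/4* libraries, against 84.2, 64.3 and 94.8 CPM in control libraries.

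*Neurogenin* had the closest neighbours of any member. The nearest was KH.C7.269 at 0.16, with 82.1, 163 and 93.7 CPM in *Lhx3/4* libraries, against 400, 386 and 360 CPM in control libraries. It too was highest in *Lhx3/4* library 2, and it fell (log2 -1.76, edgeR adjusted p = 0.00898). *Ebf* was nearest to KH.L142.14 at 0.88 and to *Onecut* at 0.98.

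The 3 factors nearest to *Mnx* shared its drop in library 3. KH.S654.3 lay at 0.40, with 2.05, 2.14 and 0.33 CPM in *Lhx3/4* libraries, against 4.39, 12.2 and 0.373 CPM in control libraries. KH.C3.751 lay at 0.40, with 19.4, 25.6 and 1.8 CPM in *Lhx3/4* libraries, against 47.7, 91.1 and 5.69 CPM in control libraries. KH.C14.307 lay at 0.53 and was likewise lowest in both libraries 3. None of the 3 passed the test (edgeR adjusted p = 0.497, 0.546 and 0.655). What sets libraries 3 apart for these genes was not tested.

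Some other regulators that the study names were read beside the members, as a list of 8 of which 7 were tested. Of these 5 fell, 1 rose and 1 did not pass. The rule called 2.92% of all tested genes down and 1.85% up, and 16.7% and 3.4% of transcription factors. The list is not complete: the study also reports *Pax6* as a raised motor ganglion factor and *Gsx* and *Pou4f* as lowered ANP factors, which were not read here. The study named the listed genes from these same libraries, so their directions are not independent evidence. *Onecut*, a factor of photoreceptor and other neurons, had 20.7 ± 3.73 CPM in *Lhx3/4* libraries and 412 ± 66.2 CPM in control libraries (log2 -4.31, edgeR adjusted p = 2e-04). The *PTF1A* homolog (KH.L116.39), a helix-loop-helix factor, fell by 8.61 on the log2 scale to 0.212 CPM in *Lhx3/4* libraries, against 82.8 CPM in control libraries (edgeR adjusted p = 1.34e-04). *Six3/6*, the *MSX2* homolog and the *ZIC4* homolog also fell, with log2 fold changes of -3.33, -3.78 and -2.87. The median log2 fold change of the 7 tested was -3.33, against 1.42 for the members and -0.19 for the members without *Lhx3/4*.

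The *NKX2-1* homolog (KH.C10.338), a homeodomain factor of the ventral forebrain in vertebrates, had 259, 122 and 290 reads in *Lhx3/4* libraries, against 0, 16 and 36 reads in control libraries. As for *Vsx*, its groups did not overlap and it did not pass (log2 3.68, SE 1.17, edgeR adjusted p = 0.158). It also missed the threshold with the replicate block (adjusted p = 0.0515) and passed with DESeq2 (adjusted p = 0.00751). *Irxb* was the listed gene that rose, with 82.3 ± 26.6 CPM in *Lhx3/4* libraries and 21.9 ± 7.75 CPM in control libraries (log2 1.91, edgeR adjusted p = 0.0199). The study names *Irxb* as a target in the cardiopharyngeal lineage, and the same gene is counted again among the cardiopharyngeal markers below. The *ASCL5* homolog, a proneural class factor, had 2, 0 and 0 reads in *Lhx3/4* libraries, against 12, 42 and 34 reads in control libraries, which left it under the minimum of 100 reads.

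The ANP label was checked against markers that the study names, in part from their change in these libraries, so their direction is not independent evidence. *Six3/6*, *Onecut*, *Tyrp-1* and the *MSX2* homolog were all present in control libraries, with means of 294 to 513 CPM, and all 4 fell in *Lhx3/4* libraries, to means of 5.92 to 42.7 CPM. Of the 1000 genes that the study lists as most expressed in control ANP cells, a list chosen on these controls, 5 rose (0.5%) and 90 fell (9%), and 905 did not pass. Of 3 cardiopharyngeal markers, which the study names for their rise here, *Foxf* and *Irxb* rose, and *Hand.r* had 5.25, 6.44 and 11.8 CPM in *Lhx3/4* libraries, against 0.618, 3.31 and 2.23 CPM in control libraries (edgeR adjusted p = 0.173, and 0.0201 with the replicate block). *Foxf* averaged 167 ± 17 CPM in *Lhx3/4* libraries and 40.5 ± 17.1 CPM in control libraries (SD, n = 3 each). The study reports other primary cardiopharyngeal targets as unaffected (*Irxa*, *Soxh*, *Gsc*) or lowered (*Elk1*, *Foxp*, *SoxC*), and these were not read here. Most genes of that lineage did not pass: of 1522 tested genes that the study lists for cardiopharyngeal progenitors, 25 rose (1.64%) and 49 fell (3.22%), beside 1.85% and 2.92% of all tested genes. Of 24 tested genes listed as targets of *Foxf*, 1 rose and 2 fell. The markers that passed moved with the same contrast as the members, and the part of these markers in the members' values was not tested.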

How the data were processed

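PolyA RNA of GFP-sorted ANP cells was sequenced in 6 libraries, 3 with *Dmrt>Lhx3/4* and 3 controls. The authors used HISAT2 (assembly ci3) for alignment and deposited raw HTSeq counts over KH2012 gene models for each library. Tool versions, and whether counting used strand, were not given in the sources used here, so antisense overlaps may share reads. The labels and the methods name different library kits. The authors' table of their own DESeq2 comparison (fold changes and p-values) was not used. The 5 HTSeq summary lines (28.5% to 38.2% of counts) were left out of library sizes.

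Genes reaching 100 reads in the 6 libraries together were tested with edgeR 4.0.16 (limma 3.58.1, R 4.3.3), quasi-likelihood, TMM factors 0.966 to 1.06, group only, with DESeq2 1.42.0 as an alternative. Log2 CPM used a prior count of 2. SEs are the log2 fold change over the square root of F. The scripts were tested on simulated counts. Members and lists were chosen with earlier results of these data known. Annotated transcription factors are the 327 gene models so listed in the supplement of the study, which also gave the ANP, cardiopharyngeal and *Foxf* target lists. The text names the 7 members, 8 other regulators out of those the study names and, for each member, the nearest transcription factors by profile. Alternatives changed the normalization, filter, threshold, tool and block, or left out libraries.

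The titles give both groups the numbers 1 to 3. Deviations from group means correlated at 0.55, 0.46 and 0.55 between libraries of the same number and at -0.17 to -0.34 otherwise. As each same-number value was positive, the numbers were read as pairs. Calls, SEs and shares come from the fit without this pairing unless the block is named. This comes from the values, since no label ties a number to a day. No library of a group matched another within counting noise (chi-square over its degrees of freedom, 132 to 375). The embryos behind each library are not stated, so p-values reflect only how these libraries vary. Gene sequences, promoters and motifs were not analysed here.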

Additional observations from a re-analysis of the deposited data

How the results depend on the processing

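No direction of a member turned under any alternative fit. Changes of threshold reuse the main fit, so no direction could turn there. The alternatives gave 238 values, which include counts of calls as well as fold changes of members. Of these, 168 changed no call of a gene or, for a count, stayed within 1.5 times the reported one. Leaving out 1 library at a time, 2 to 5 members were called (2 without control library 2 or *Lhx3/4* library 3, 3 without control library 1), with 147 to 305 genes up, 246 to 426 down, and 5 to 14 transcription factors up and 34 to 47 down. The log2 fold changes then ran from 3.77 to 4.21 for *Lhx3/4*, 1.95 to 3.06 for *Nkx6*, 4.06 to 5.37 for *Vsx*, 1.20 to 1.59 for *Islet*, -2.31 to -0.95 for *Mnx*, -2.29 to -1.59 for *Neurogenin* and -6.34 to -5.13 for *Ebf*.

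At an adjusted p under 0.01, 2 members (*Lhx3/4* and *Ebf*), 108 genes up and 199 down, and 3 transcription factors up and 29 down were called, so that *Nkx6* (2.67), *Islet* (1.42) and *Neurogenin* (-1.82) did not pass. DESeq2 called 478 genes up and 746 down and 22 transcription factors up. The replicate block called 644 genes up and 947 down and 30 transcription factors up. With the block, *Vsx* (4.85) and *Mnx* (-1.58) passed, and it changed no other member's call. *Vsx* also passed with DESeq2 (4.69) and with library size as the sole scaling (4.71, adjusted p = 0.0498 in edgeR), and it has no value under a minimum of 100 reads in each of 3 libraries, which it does not reach. The median log2 fold change of all genes was 0.013 in the main fit. Under other scalings it was -0.003 (RLE size factors) and 0.075 (library size only).

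A second set of alternatives was chosen after seeing the data. DESeq2 with the replicate block called 800 genes up and 1217 down and 34 transcription factors up and 87 down, with *Vsx* at 5.01 and *Mnx* at -1.59. Without both libraries of 1 replicate number, 1 to 3 members were called, 50 to 166 genes rose, 102 to 338 fell, and 2 to 7 transcription factors rose and 14 to 38 fell. *Vsx* ran from 3.97 to 5.36. *Nkx6* then lost its call for each number (2.34 to 2.81), *Islet* for numbers 1 and 2 (1.39 and 1.49), *Neurogenin* for 1 and 3 (-1.67 and -1.68) and *Ebf* for number 1 (-5.58). These fits also had fewer libraries, and the cause of the changes was not tested. *Vsx* had the fewest control reads of the members, 10 over all control libraries, and what limited its call was not tested.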
